A study of Mus musculus with 6 samples.

Results

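The genes examined here encode the subunits of the oxidative phosphorylation system, the 5 protein complexes of the inner mitochondrial membrane that turn the oxidation of nutrients into ATP. They were chosen by name alone: rows of the authors' comparison table whose gene name begins as subunits of complexes I to V are named, with names that mark a pseudogene (-ps) left out. This gave 99 genes of the 17110 in the table, of which 48 belong to complex I, 4 to complex II, 9 to complex III, 18 to complex IV and 20 to complex V. The nuclear genome encodes 86 of them and the mitochondrial genome 13. A further 5 rows with -ps names were left out.

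The cells were mouse embryonic stem cells of the line TG2A, kept in serum and LIF (leukemia inhibitory factor), which holds them in a self-renewing state. All of them carried a fluorescent reporter under the control of MERVL, an endogenous retrovirus active in the early embryo at the two-cell stage and in a small minority of cultured stem cells. Cells were sorted by reporter fluorescence into DsRed2+ and DsRed2- groups of 3 samples each, collected on separate dates, and RNA captured with oligo(dT) was sequenced. The reporter is a transgene in a single named line, and the labels do not say whether that line is 1 clone.

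The electron transport chain passes electrons from NADH through complex I, or from succinate through complex II, to ubiquinone, then through complex III and cytochrome c to complex IV, which reduces oxygen. Complexes I, III and IV pump protons, and complex V, the ATP synthase, uses the gradient to make ATP. Complex II alone has no subunit encoded by mitochondrial DNA, and the others are built from proteins of both genomes. Embryonic stem cells in culture are known for a high rate of glycolysis beside active respiration, and their balance shifts with the pluripotent state.

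Every fold change below is the log2 fold change of the authors' deposited table, made with DESeq2, and the value after ± is the authors' standard error, from 3 samples a group. The table does not state which sorted group is the numerator and does not name the groups, which were taken from the labels. A positive value is therefore higher in 1 of the groups without that group being named. These p-values set the difference between the groups against the spread between the sorted samples, under a model whose formula is not given. A gene is called when its adjusted p-value in the authors' deposited table is under 0.05. Values per sample are not analysed here, because the columns of the count table could not be matched to samples, so overlap between the groups cannot be described. In bulk RNA, a change in RNA per cell and a change in the kinds of cell present cannot be told apart.

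Markers of the labelled cell type were present: 7 of 8 embryonic stem cell markers had a row, with mean normalized counts from 2822 to 32811. Of these, 4 were called positive, with Zfp42 highest at 1.10, and 0 were called negative. Of 7 trophectoderm markers with a row 5 were called negative (median -3.96), and of 6 fibroblast markers 4 were called negative (median -2.10). Of 4 primitive endoderm markers, 1 was called negative (median -1.13). The summed mean counts of the trophectoderm and fibroblast markers were 0.0179% and 0.00593% of the table, against 0.265% for the stem cell markers. None of 8 two-cell markers had a row used here. These markers moved in the same comparison as the oxidative phosphorylation genes, and their part in the results below was not tested.

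Some members have close relatives in the genome, and the sequences of 2 such pairs are shown because 3 of the called genes are among them. Ndufb11b is a single-exon gene on chromosome 15 (81980540 to 81981563, plus strand, GENCODE M21 on GRCm38) that resembles Ndufb11, an accessory subunit of complex I whose gene has 3 exons on the X chromosome (20615326 to 20617619, minus strand). Over 447 aligned bases of their coding sequences 353 were identical (79.0%). Below are 90 bases of each coding sequence, from base 91 of Ndufb11 and base 88 of Ndufb11b, with the 19 differing bases in capitals.
Ndufb11: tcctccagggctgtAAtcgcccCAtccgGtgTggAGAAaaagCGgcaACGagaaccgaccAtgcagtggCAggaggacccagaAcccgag
Ndufb11b: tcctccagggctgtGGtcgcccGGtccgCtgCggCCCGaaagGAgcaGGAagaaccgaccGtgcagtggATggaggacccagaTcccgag
Reads of 150 bases, the length used in the study, separate these genes: 0 windows of that length in Ndufb11b were found in a transcript of another gene.

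Ndufb4c is different. In GENCODE M21 it is a processed pseudogene on chromosome 15 (73809507 to 73809896, minus strand on GRCm38), and all 390 of its bases equal the coding sequence of Ndufb4, another accessory subunit of complex I, on chromosome 16 (37647170 to 37654453, minus strand). The first 90 bases of each are printed to show that no base differs.
Ndufb4: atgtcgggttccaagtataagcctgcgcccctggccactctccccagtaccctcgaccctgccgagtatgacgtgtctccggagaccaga
Ndufb4c: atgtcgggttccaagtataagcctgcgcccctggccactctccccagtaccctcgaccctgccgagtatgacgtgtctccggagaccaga
All 241 windows of 150 bases in Ndufb4c also occur in Ndufb4, so the counts of these genes depend on how the authors' counting divided shared reads. In the authors' deposited table, Ndufb4c had a mean normalized count of 1460 and Ndufb4 had 493.4.

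Across the whole system, 25 of 99 genes (25.3%) were called in the authors' deposited table, all with a positive sign. Of all genes, 30.5% were called, with 14.6% positive and 15.9% negative. The members were thus called no more often than other genes, but 25.3% of them were called positive and 0 were called negative. Of the members, 31 had an unadjusted p-value under 0.05, and 0 of these were negative. The sign was positive for 86 of the 99 members (86.9%) and for 51.0% of all genes. It was also positive for 59.7% of genes with a mean normalized count of at least 1000. The share was 77.8% for genes of the mitochondrial ribosome and 89.5% for cytosolic ribosomal protein genes, so the lean is not particular to the members.

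**Figure D1:**
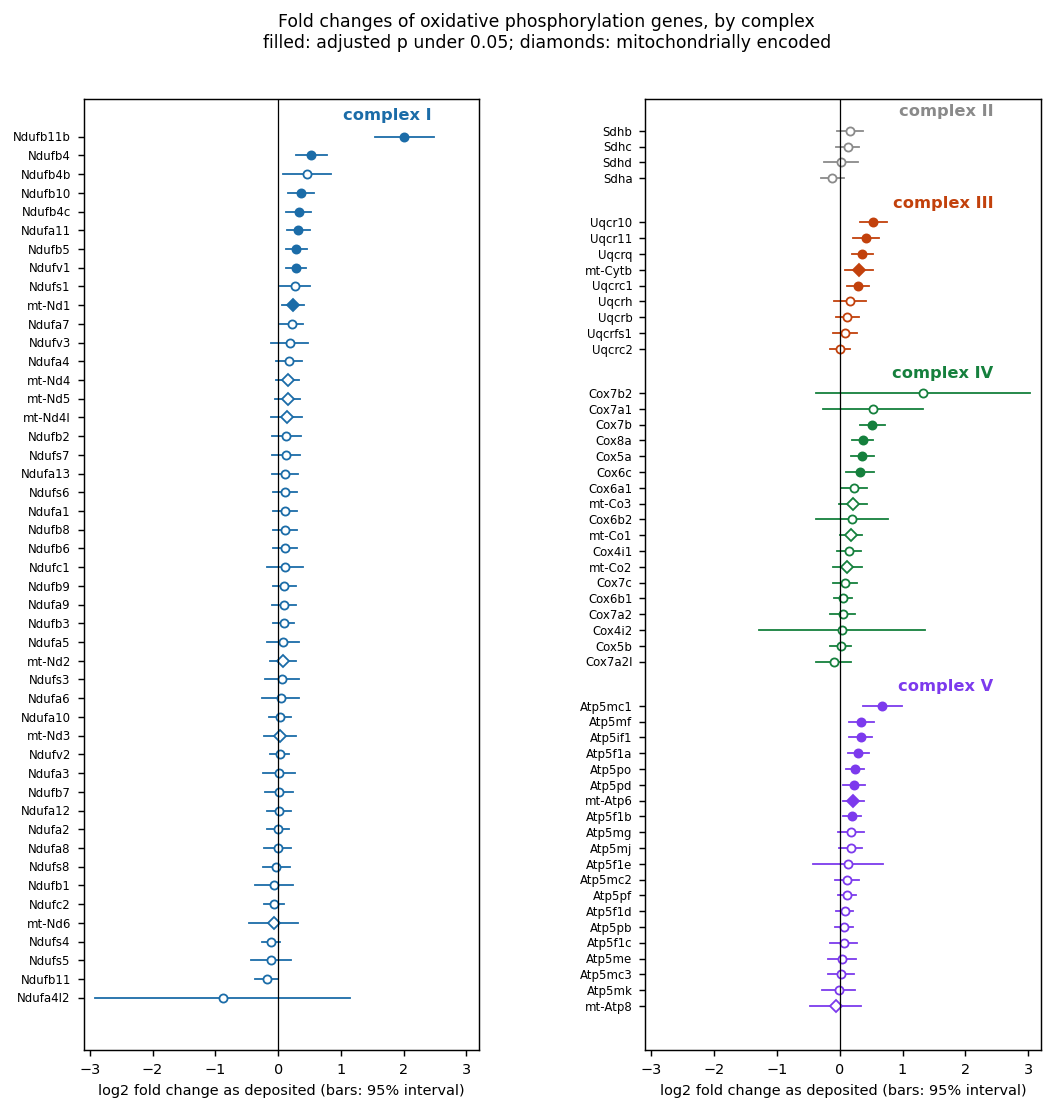
Each row shown is a gene of complex I (left) or complexes II to V (right), with its log2 fold change as deposited on the horizontal axis and a bar for the 95% interval from the authors' standard error. Filled symbols have an adjusted p-value under 0.05 and diamonds are mitochondrially encoded genes. All 25 filled symbols lie right of 0, and Ndufb11b at 2.01 stands apart from the rest.

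The shifts were small. The median log2 fold change of the 99 members was 0.12, a 1.09-fold difference, against 0.0097 for all genes. The middle 50% of the members lay between 0.033 and 0.23, a range of 0.20, while for all genes this range was 0.60. Folds of the called members began at 1.14 (Atp5f1b), and only Uqcr10, Atp5mc1 and Ndufb11b lay above the 1.44 of Ndufb4 and Cox7b. Only 5 members exceeded the authors' own limit of 0.5 on the log2 scale with a call (Ndufb11b, Ndufb4, Uqcr10, Cox7b and Atp5mc1). In the table, 9.40% of genes passed that limit with a positive sign and 12.1% with a negative sign.

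Members are abundant transcripts with small standard errors. The median standard error of a member was 0.10, against 0.18 for all genes (log2 scale). Among the 5780 genes with a mean normalized count of at least 1000, 31.0% were called, 18.3% positive and 12.6% negative, with a median of 0.057. Of the 84 members above the same level, 23 (27.4%) were called positive and 0 negative, with a median of 0.12. The plot of fold change against mean count shows where the members lie among all genes.

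**Figure D2:**
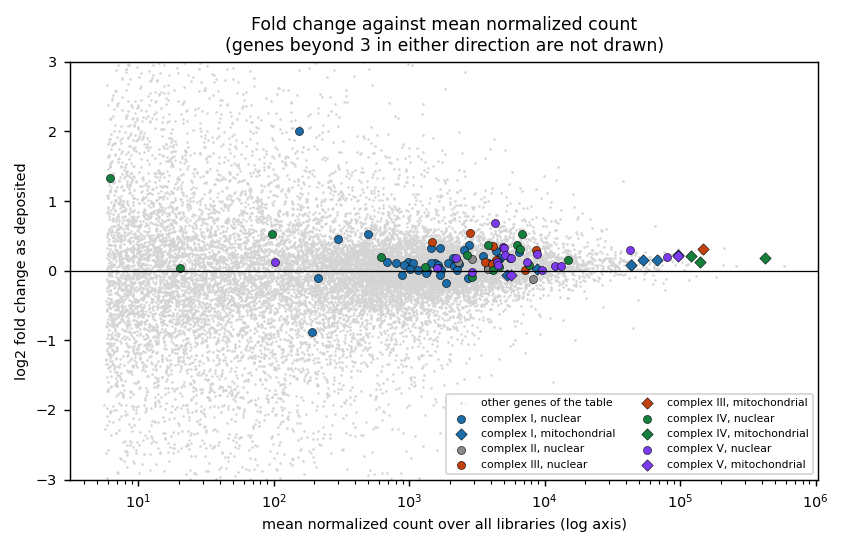
Each point is a gene, with the mean normalized count over all libraries on a log axis and the log2 fold change as deposited on the vertical axis. Members are coloured by complex and most lie at mean counts over 1000, in a narrow band above 0, with a median of 0.12.

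How many members were called, and for some genes the sign, depended on the scaling. Setting 0 at the median of the cytosolic ribosomal protein genes, a shift of 0.093, left 14 members called positive and made 2 negative (Ndufb11 and Ndufs4). With that shift, 61 of the 99 members (61.6%) were above 0. The calls of all genes then became 1864 positive and 3508 negative, from 2492 and 2719. Removing the trend with GC content and transcript length by loess, a local regression over all genes, gave 21 positive and 8 negative members. Of the 98 members with a reference transcript, 52 were above 0. Of all genes with one, 21.3% were then called positive and 13.6% negative, so the members' positive share was near that of all genes. With other forms of that loess, tried after these values were known, the positive calls ran from 12 to 19 and the negative calls from 1 to 11. Of all genes, 15.1% to 21.1% were called positive in these forms and 13.7% to 15.4% negative. The form with 12 positive and 11 negative members called 17.5% of all genes positive and 15.4% negative. The 0 negative calls of the deposited values therefore hold only without such a correction.

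Under the deposited scaling, both centrings, a minimum mean count of 100 and all 5 forms of the GC and length correction, 8 members were called positive throughout: Uqcr10 and Uqcrq of complex III, Cox7b and Cox8a of complex IV, Atp5mc1 of complex V, and Ndufv1, Ndufb4 and Ndufb11b of complex I. No share of all genes called throughout these settings is available here, so this count has no background beside it. Ndufb11, the relative of Ndufb11b, was called negative under ribosomal centring and all 5 corrections, but not as deposited. The medians of the complexes followed the same dependence: with the first form of the correction that of complex I was -0.059 and those of complexes III, IV and V were 0.056, 0.045 and 0.063.

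**Figure D3:**
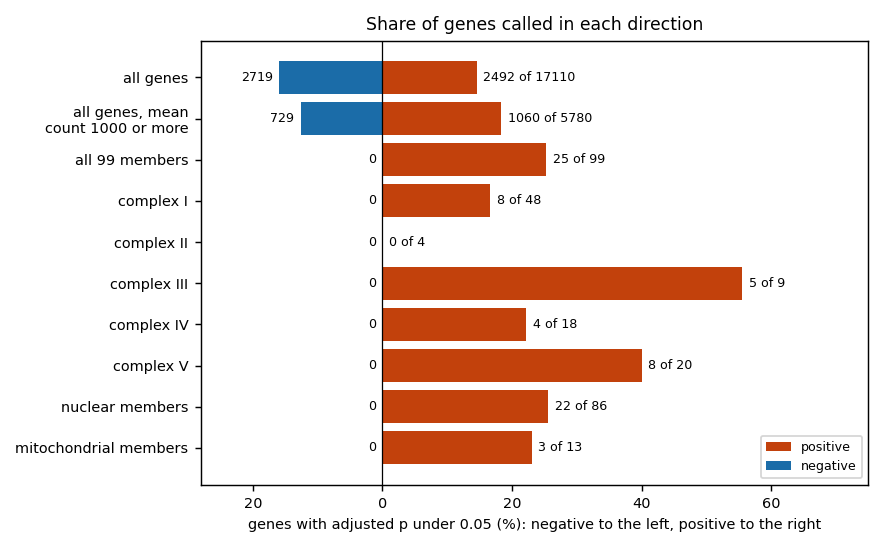
Bars give the percentage of genes called at an adjusted p-value under 0.05, positive to the right and negative to the left, with the number of genes beside each bar. All genes split about evenly (2492 positive, 2719 negative), while every complex has 0 negative calls and complex II has none in either direction.

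The complexes differed in how many subunits were called, and these differences were not tested, since genes of the same libraries are not replicates. Complex III had the highest share, with 5 of 9 subunits called (55.6%), followed by complex V with 8 of 20, complex IV with 4 of 18 (22.2%), complex I with 8 of 48 (16.7%) and complex II with 0 of 4. The share of complex I was near the 14.6% of all genes called positive. The median log2 fold changes followed nearly the same order: 0.29 in complex III, 0.19 in complex IV, 0.15 in complex V, 0.11 in complex I and 0.073 in complex II. With 0 set at the ribosomal protein genes they were 0.20, 0.097, 0.061, 0.013 and -0.019, so that complex II changed sign.

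Complex I, the NADH dehydrogenase, takes electrons in its N module, passes them through the Q module and pumps protons in its membrane arm. Of the 7 nuclear core subunits that carry the flavin and iron-sulfur clusters or the quinone site, only Ndufv1 was called. Ndufv1, the subunit that binds NADH and flavin, had a value of 0.28 ± 0.077 in the table deposited by the authors (adjusted p-value 0.00138). Ndufs1, its iron-sulfur neighbour in the N module, had a similar 0.27 but a standard error of 0.12, and missed the threshold as deposited (adjusted p-value 0.0694). It was called positive under all 5 forms of the GC and length correction, at 0.36 (adjusted p-value 0.00958) in the first. Ndufv2, the remaining N module core subunit, stood at 0.028 with a 95% interval from -0.12 to 0.18.

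Among the Q module core subunits, Ndufs7 was at 0.13, Ndufs3 at 0.066 and Ndufs8 at -0.027 in the authors' deposited table, and none of them was called. Their standard errors were 0.11, 0.14 and 0.11. The 95% intervals of Ndufs7 and Ndufs3, which reached 0.35 and 0.33, included the value of Ndufv1.

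The accessory subunits, which surround and stabilize the core, held the other nuclear calls of complex I, 6 of 34 genes. The 34 take in Ndufa4, Ndufa4l2 and the gene copies Ndufb4b, Ndufb4c and Ndufb11b. Of the 6 calls, 5 were among the 14 Ndufb genes (35.7%), many of which lie in the membrane arm. The other was among the 14 Ndufa genes (7.14%), beside 14.6% of all genes called positive. The 5 Ndufb calls include the gene copies Ndufb11b and Ndufb4c. The median standard error was 0.11 in the Ndufb and 0.10 in the Ndufa genes, and the difference in calls was not tested. In the authors' deposited table, Ndufb10 had 0.36 ± 0.11 (adjusted p-value 0.00349) and Ndufb5 had 0.29 ± 0.087 (adjusted p-value 0.00374). Ndufb4 had 0.52 ± 0.13 (adjusted p-value 0.000209), and its identical copy Ndufb4c had 0.33 ± 0.10 (adjusted p-value 0.00766). Another gene of this family, Ndufb4b, lay just outside the threshold, at 0.46 ± 0.19 (adjusted p-value 0.0532). Ndufa11, a subunit of the membrane arm, was the called Ndufa gene, at 0.32 ± 0.092 (adjusted p-value 0.00255).

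The most positive member of all was Ndufb11b, at 2.01 ± 0.24 and an adjusted p-value of 2.56e-15 in the authors' deposited table, a 4.02-fold difference. Its mean normalized count was 153.3, against 1881 for Ndufb11. Per kilobase of transcript these levels were 149.7 and 2071. Ndufb11 itself stood at -0.18 with a 95% interval from -0.37 to 0.0044, and the intervals of the genes do not overlap. As deposited Ndufb11 was not called (adjusted p-value 0.142). Ribosomal centring gave -0.27 (adjusted p-value 0.0152), and the first GC and length correction gave -0.33 (adjusted p-value 0.0028).

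Other complex I subunits lay close to 0. Ndufs4, an accessory subunit of the N module side, stood at -0.11 ± 0.073 (adjusted p-value 0.284), and was called negative after ribosomal centring, at -0.20 (adjusted p-value 0.0227), and in 1 of the 5 GC and length corrections. The lowest value of any member was that of Ndufa4l2, at -0.88, but its standard error was 1.04 and its 95% interval ran from -2.91 to 1.15. Ndufa4l2 is known as a hypoxia-inducible relative of Ndufa4, which is named for complex I but is now counted as a subunit of complex IV. Ndufa4 stood at 0.18 ± 0.11 (adjusted p-value 0.213) in the authors' deposited table. Counting both in complex IV changed its median from 0.19 to 0.18 and left that of complex I at 0.11. Ribosomal centring ended the calls of Ndufb5, Ndufb4c and mt-Nd1, and all 5 GC and length corrections ended those of Ndufb4c and mt-Nd1. Ndufb10 lost its call in 4 of the 5 corrections, Ndufb5 in 2 and Ndufa11 in 1.

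Complex II, the succinate dehydrogenase, also serves the citrate cycle. Its subunits were at -0.12 (Sdha, the flavoprotein), 0.16 (Sdhb, the iron-sulfur protein), 0.13 (Sdhc) and 0.020 (Sdhd), the latter pair being membrane anchors, in the authors' deposited table. Their standard errors were 0.090, 0.11, 0.093 and 0.14. All 4 intervals included 0, and the interval of Sdha reached from -0.29 to 0.060.

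Complex III, the cytochrome bc1 complex, oxidizes ubiquinol and reduces cytochrome c. All 9 of its subunits were positive, and all but Uqcrc2 were above 0.08. The highest were small accessory subunits: Uqcr10 at 0.53 ± 0.11 (adjusted p-value 1.04e-05), Uqcr11 at 0.41 ± 0.11 (adjusted p-value 0.000539) and Uqcrq at 0.36 ± 0.086 (adjusted p-value 0.000229) in the authors' deposited table. Uqcrc1 and Uqcrc2 form the large core dimer of the complex on its matrix side. Uqcrc1 was at 0.29 with a 95% interval from 0.12 to 0.47, and Uqcrc2 at 0.0054 with an interval from -0.16 to 0.17. These intervals overlap.

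Of the redox subunits, the mitochondrially encoded cytochrome b (mt-Cytb) was called at 0.31 ± 0.11 (adjusted p-value 0.024) in the authors' deposited table. The Rieske iron-sulfur protein Uqcrfs1 was at 0.089 and was not called (adjusted p-value 0.548). Cytochrome c1 (Cyc1), which the naming rule leaves out, was at 0.29 ± 0.074 (adjusted p-value 0.00047). It was the only called gene in a list of 6 that the rule misses, of which 4 were negative and whose median was -0.10. Of these, cytochrome c itself (Cycs) was at -0.14 ± 0.13 and the complex I subunit Ndufab1 at -0.15 ± 0.097, and neither was called. Uqcrc1 lost its call after ribosomal centring (adjusted p-value 0.078) but in none of the 5 GC and length corrections, and mt-Cytb lost it in all of these settings. Uqcr11 lost its call in 1 correction.

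Complex IV, cytochrome c oxidase, has a catalytic core of 3 mitochondrially encoded subunits and a shell of small nuclear ones. The core genes mt-Co1, mt-Co2 and mt-Co3 were at 0.18, 0.12 and 0.21 in the authors' deposited table, and the standard errors were 0.088, 0.12 and 0.12, and none was called. The 4 called genes were nuclear. Cox7b had 0.52 ± 0.10 (adjusted p-value 5.44e-06), Cox8a had 0.36 ± 0.083 (adjusted p-value 8.98e-05), Cox5a had 0.36 ± 0.090 (adjusted p-value 0.000398) and Cox6c had 0.32 ± 0.12 (adjusted p-value 0.022). Cox6c lost its call after ribosomal centring (adjusted p-value 0.129) and in 3 of the 5 GC and length corrections, and Cox5a in 2 of the 5. Cox5a and Cox5b, both general nuclear subunits, were at 0.36 and 0.015, with 95% intervals from 0.19 to 0.54 and from -0.15 to 0.18.

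Several complex IV subunits exist as general and tissue-restricted isoforms, the latter known from muscle, lung or testis. Of the restricted forms, Cox4i2, Cox6b2, Cox7a1 and Cox7b2 had a row. Per kilobase of transcript, the restricted forms were below their general counterparts in the pooled mean counts: 28.0 for Cox4i2 against 19434 for Cox4i1, and 11.4 for Cox7b2 against 6811 for Cox7b. Cox6b2, a testis form, was closer to its counterpart, with 1052 against 7502 for Cox6b1, and Cox7a1 had 199.7 against 2003 for Cox7a2. None of the 4 was called: their log2 fold changes were 0.032, 0.20, 0.53 and 1.32 (SEs 0.68, 0.29, 0.41 and 0.87) in the authors' deposited table. The general forms Cox4i1, Cox6a1, Cox6b1 and Cox7a2 were at 0.15, 0.23, 0.052 and 0.046 and were not called either. Cox7a2l, which links complexes III and IV in supercomplexes, was the only negative gene of complex IV, at -0.094 with a 95% interval from -0.37 to 0.19.

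Complex V has a soluble F1 head that makes ATP, a ring of c subunits turned by protons, and a peripheral stalk that holds the head in place. Of the 5 F1 genes, the catalytic pair was called: Atp5f1a at 0.30 ± 0.088 (adjusted p-value 0.00383) and Atp5f1b at 0.19 ± 0.073 (adjusted p-value 0.0288) in the authors' deposited table. The central stalk genes Atp5f1c, Atp5f1d and Atp5f1e were at 0.061, 0.081 and 0.13 and were not called. Atp5f1e had a mean count of only 103.3 and a standard error of 0.28.

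The 3 genes of the c ring encode precursors of the same mature protein, and they gave unlike values. Atp5mc1 had 0.68 with a 95% interval from 0.37 to 0.99 (adjusted p-value 0.000156) in the authors' deposited table, the highest of complex V. Atp5mc2 had 0.12 with an interval from -0.069 to 0.31, and Atp5mc3 had 0.015 with an interval from -0.19 to 0.22. The interval of Atp5mc1 lies above those of the other 2 genes. Of the 150-base windows in the annotated transcript of Atp5mc1, which is 4.71 kb long, 5.15% occur in the processed pseudogene Gm10039, which had a mean count of 126.0 and a log2 fold change of 0.81.

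In the peripheral stalk, Atp5po was at 0.24 and Atp5pd at 0.22 (adjusted p-values 0.00537 and 0.0397), while Atp5pf and Atp5pb were at 0.12 and 0.074 and not called. Of the genes of the membrane part, Atp5mf was called at 0.34 ± 0.10 (adjusted p-value 0.00438) and mt-Atp6, which forms the proton channel, at 0.22 ± 0.086 (adjusted p-value 0.0401). Atp5mg, Atp5mj, Atp5me and Atp5mk were at 0.18, 0.18, 0.032 and -0.019. Atp5if1, the inhibitor that blocks the enzyme when it would run in reverse and burn ATP, was at 0.33 ± 0.090 (adjusted p-value 0.00138) in the authors' deposited table. Ribosomal centring ended the calls of Atp5f1a, Atp5f1b, Atp5pd, Atp5po and mt-Atp6, and all 5 GC and length corrections ended those of Atp5pd, Atp5po and mt-Atp6. Atp5if1 and Atp5f1b each lost their calls in 3 of the 5 corrections and Atp5mf in 2.

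As deposited, the nuclear members had a median log2 fold change of 0.12 with 22 of 86 called (25.6%). The mitochondrial members had a median of 0.15 with 3 of 13 called (23.1%). All of these calls were positive, beside 30.5% of all genes called and 14.6% called positive. The difference between the medians was not tested. The spread differed: the mitochondrial genes ran from -0.069 to 0.31, and the nuclear genes from -0.88 to 2.01. All 3 mitochondrial calls (mt-Nd1, mt-Atp6 and mt-Cytb) were lost after ribosomal centring and in all 5 GC and length corrections, and mt-Atp6 also when 0 was set at the median of all genes (adjusted p-value 0.0521).

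The sign of the mitochondrial genes turned with the form of the GC and length correction. Their median GC content was 37.1%, against 51.5% for nuclear members and 50% for all genes. Their median transcript length was 0.784 kb, near the 0.861 kb of nuclear members and below the 2.83 kb of all genes. With ordinary loess, the first form run, the mitochondrial median was -0.20 and the nuclear median 0.029. In that form mt-Atp6 was called negative at -0.22 (adjusted p-value 0.0318), mt-Nd1 was at -0.11 and mt-Cytb at 0.056. With a robust loess, which gives less weight to outlying genes, the mitochondrial median was 0.11 and mt-Atp6, mt-Nd1 and mt-Cytb were at 0.13, 0.16 and 0.26. Which form describes these genes better was not tested, so these data fix neither a direction for the mitochondrial genes nor a difference from the nuclear genes.

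The 13 mitochondrial genes are transcribed as long precursors, 12 of them from the same strand, which are then cut. Per kilobase, the mean normalized count ran from 10215 for mt-Nd6 to 275216 for mt-Co1. The overlapping genes mt-Atp8 (204 bases) and mt-Atp6 (681 bases) had 27505 and 141544. The part of gene length, shared reads and oligo(dT) capture in these values was not tested. Nuclear members had a median of 2725 per kilobase and mitochondrial members of 48731, and together the 13 genes made up 3.46% of the summed mean counts of the table. The negative genes were mt-Nd6, the only gene on the other strand, at -0.069, and mt-Atp8, at -0.064, with the largest standard errors of the 13 (0.20 each) in the authors' deposited table. mt-Atp8 shares 43 bases with mt-Atp6, and mt-Nd6 and mt-Nd5 share 14 bases on opposite strands, so reads from these overlaps cannot be given to a single gene by sequence. Across the 13 genes, the rank correlation of fold change with mean count was 0.71 and with GC content 0.61, given as a description, since the genes share libraries and precursors.

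**Figure D4:**
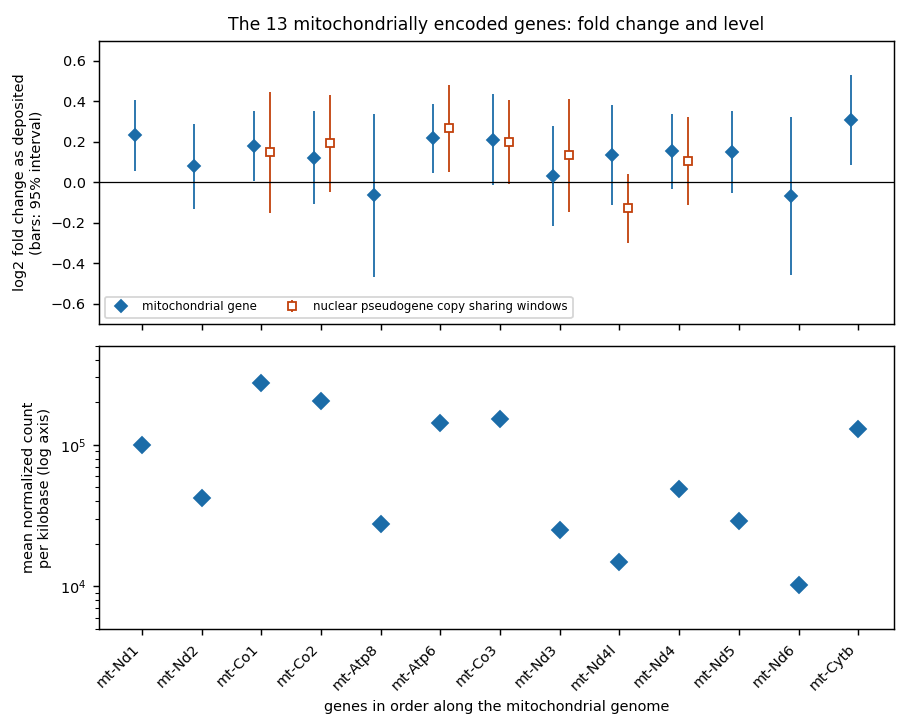
Genes run in their order along the mitochondrial genome. The upper panel gives the log2 fold change as deposited with 95% intervals for each gene and for its nuclear pseudogene copy where that copy had a mean count over 1000, and the lower panel gives the mean normalized count per kilobase on a log axis. mt-Nd6 and mt-Atp8 are the genes below 0, and the copy of mt-Nd4l lies at -0.13.

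Nuclear copies of mitochondrial DNA bear on these values. For 7 of the 13 genes at least 10% of the 150-base windows also occur in another annotated gene, and for mt-Atp6, mt-Co2, mt-Co3, mt-Nd3 and mt-Nd4l it was over 96%. These partners are unprocessed pseudogenes in the nuclear genome, and most of them carried high counts in the authors' deposited table. As with Ndufb4c, the counts of gene and copy depend on how the authors' counting divided shared reads. Gm28437, the copy of mt-Co3, had a mean count of 71088, which was 37.3% of the sum of both. For Gm28661 (mt-Co2), Atp6-ps (mt-Atp6), Gm28438 (mt-Nd3) and Gm10222 (mt-Nd4l) this share was 29.6%, 32.9%, 38.7% and 39.0%.

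The log2 fold changes of the copies were mostly near those of their genes in the authors' deposited table: 0.20 for Gm28437 and 0.21 for mt-Co3, 0.19 for Gm28661 and 0.12 for mt-Co2, 0.27 for Atp6-ps and 0.22 for mt-Atp6. Gm10222 stood at -0.13 ± 0.087, against 0.13 ± 0.13 for mt-Nd4l. Gene and copy draw on shared reads, so their values are not independent, and transcription of the copies was not tested. The 6 mitochondrial genes without such windows had a median of 0.12 with 2 called, and the 7 with them had 0.15 with 1 called.

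Among the 85 nuclear members with a reference transcript, 10 had at least 10% of their windows in another gene, and 4 of these were called (Ndufb4, Ndufb4c, Atp5pd and Atp5po). With both genomes limited to members under 10%, 18 of 75 nuclear and 2 of 6 mitochondrial members were called, 20 positive and 0 negative. Of all genes, without that limit, 14.6% were called positive and 15.9% negative.

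Promoters were searched because the nuclear members lean the same way and because NRF1, ETS factors such as GABPA, and YY1 are known regulators of respiratory genes. RefSeq promoter windows of GRCm38.p6, from 250 bases before to 50 bases after the start site, matched 71 of 86 nuclear members. The palindromic core of the NRF1 motif, given in capitals in the stretches that follow, was found in 5 of these 71 genes (7.04%) and in 1.07% of all 27025 genes with a window. The ETS core CCGGAAGT, on either strand, was found in 5 (7.04%) against 4.31%, and the YY1 core AAGATGGCG, on either strand, in 7 (9.86%) against 1.64%. The gene sets are unlike: the 27025 genes exceed the 17110 genes of the comparison and so include genes without a row, while every member has a row. Shares among genes with a row were not computed. None of these motifs contains another, and a match is a description of the sequence, not a bound site.

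Stretches before the start site that hold the NRF1 core are printed for the 4 members where it lies upstream, with the core in capitals. They come from chr17:56717677-56717736 (plus strand), chr5:115349086-115349145, chr15:102671055-102671114 and chr5:108434415-108434474 (all minus strand).
Ndufa11: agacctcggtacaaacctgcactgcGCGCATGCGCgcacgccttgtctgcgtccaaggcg
Cox6a1: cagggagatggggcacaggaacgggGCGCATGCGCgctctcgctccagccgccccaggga
Atp5mc2: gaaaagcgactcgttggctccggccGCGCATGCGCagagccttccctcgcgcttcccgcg
Atp5me: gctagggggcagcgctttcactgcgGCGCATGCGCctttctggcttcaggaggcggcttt
Their log2 fold changes in the authors' deposited table were 0.32, 0.23, 0.12 and 0.032, and only Ndufa11 was called. In Uqcrc1 (0.29, called) the NRF1 core lies after the start site. The ETS core lies wholly upstream in 3 members, all on the minus strand: Uqcr11 (0.41, called, chr10:80406855-80406912), Atp5pd (0.22, called, chr11:115419926-115419983) and Uqcrh (0.16, not called, chr4:116075071-116075106). It is in capitals as it reads on the gene's strand. In Cox8a (0.36, called) a core spans the start site, and in Ndufs3 (0.066, not called) it lies after it.
Uqcr11: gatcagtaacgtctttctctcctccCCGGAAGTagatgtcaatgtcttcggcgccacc
Atp5pd: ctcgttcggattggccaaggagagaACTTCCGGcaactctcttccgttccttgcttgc
Uqcrh: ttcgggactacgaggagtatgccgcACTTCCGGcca
Of members with a window, 2 of 5 with the NRF1 core were called and 16 of 66 without it, 3 of 5 with the ETS core and 15 of 66 without it, and 1 of 7 with the YY1 core and 17 of 64 without it. The groups with a motif are too small for more than these counts.

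The other genes of the pathway were taken from lists of general knowledge. Assembly factors, which build the complexes but are not part of them, did not lean to a side. Of 62 with a row, 6 (9.68%) were called positive and 4 (6.45%) negative, against 14.6% and 15.9% of all genes. Of the assembly factors 34 were positive, and their median log2 fold change was 0.042. Those of complex II were all slightly negative, with 4 of 4 below 0 and a median of -0.12, and 0 of them called, with 0 at an unadjusted p-value under 0.05. In the authors' deposited table the assembly factors with the smallest p-values were Tmem70, at -0.42 ± 0.10, Higd2a at 0.42 ± 0.12, Ndufaf6 at -0.44 ± 0.13, and Ecsit at 0.42 ± 0.13. Tmem70 is needed to assemble complexes V and I, Ndufaf6 and Ecsit act on complex I, and Higd2a acts on complex IV.

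Genes of the mitochondrial ribosome, which translates the 13 mitochondrial genes, had a median of 0.14 over 81 genes, with 63 positive. Of these genes 12 (14.8%) were called positive, against 14.6% of all genes, and 1 negative. The called ones with the smallest p-values were Mrps24 at 0.59, Mrps12 at 0.69, Mrpl36 at 0.58 and Mrpl24 at 0.32 (SEs 0.11, 0.14, 0.14 and 0.091) in the authors' deposited table. Mrpl47 and the complex I gene Ndufb5 share 7.20% of the windows of Ndufb5, and had 0.31 and 0.29. The cytosolic ribosomal protein genes had a smaller median of 0.093 over 76 genes, with 68 positive. Of them 5 (6.58%) were called positive and 0 negative, and 0 reached the authors' limit of 0.5.

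Factors that copy and transcribe mitochondrial DNA went both ways. Polrmt, the mitochondrial RNA polymerase, was at 0.44 ± 0.095 (adjusted p-value 4.08e-05) and its elongation factor Tefm at 0.49 ± 0.11 (adjusted p-value 0.000116) in the authors' deposited table. Polg, the catalytic subunit of the mitochondrial DNA polymerase, was at -0.41 ± 0.11 (adjusted p-value 0.000537), and Primpol, a primase and polymerase, at -0.56 ± 0.22 (adjusted p-value 0.0394). The list of 16 had a median of 0.032 with 2 called positive and 2 negative (12.5% each), against 14.6% and 15.9% of all genes. As deposited, 11 of the 13 mitochondrial genes were positive, but their sign turned with the form of the GC and length correction. A link between these factors and the mitochondrial genes was not tested.

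Of 11 regulators of mitochondrial biogenesis with a row, 2 (18.2%) were called, both positive, near the 14.6% of all genes called positive. In the authors' deposited table these were Gabpa at 0.26 ± 0.083 (adjusted p-value 0.00766) and the coactivator Pprc1 at 0.27 ± 0.11 (adjusted p-value 0.0377). The list of 17 citrate cycle and pyruvate dehydrogenase genes had a median of 0.059, with Idh3g at 0.30 and Cs at 0.23 among the genes called positive and Suclg2 at -0.32 called negative in the authors' deposited table. Of 13 genes of ubiquinone synthesis, Coq8a was called positive at 0.61 and Coq2 negative at -0.38, with standard errors of 0.24 and 0.14. The list median was 0.11.

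**Figure D5:**
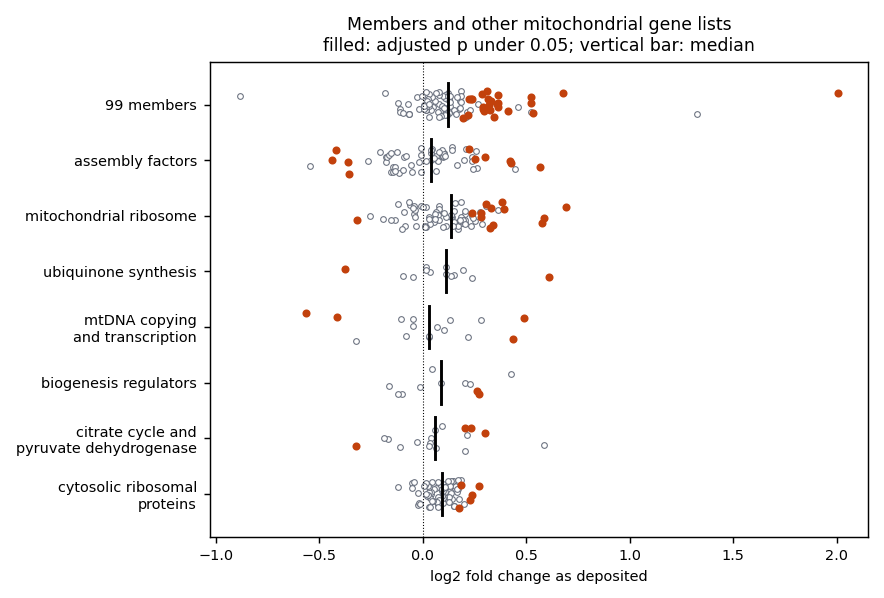
Each point is a gene, placed by its log2 fold change as deposited, for the 99 members and for other mitochondrial gene lists and the cytosolic ribosomal proteins. Filled points have an adjusted p-value under 0.05 and vertical bars are medians, which run from 0.032 for mitochondrial DNA copying and transcription to 0.14 for the mitochondrial ribosome.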

How the data were processed

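RNA from 6 samples (2 groups of 3) was compared by the authors, and 1 table of that comparison was used. Per the submitters' processing notes, the tools listed are FastQC 0.12.1, Trimmomatic 0.39, STAR 2.7.11b, RSEM 1.3.3 and DESeq2 1.45.3 and the build is GRCm39. No role or order is given there, and the annotation, the model formula and the reference group are not given in the sources used here. Per the file headers, the table holds a mean normalized count per gene (used as a signal averaged by the authors), a log2 fold change with its SE, and a Wald score equal to their ratio within 5.77e-07. The p-value and adjusted p-value are also as deposited. The authors' DESeq2 test was taken as it stands. A count table was not used, because its 6 columns match no sample label, so depth and replicate spread per library are not analysed here.

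Intervals of 95% assume a normal distribution around the fold change. Where fold changes were centred or corrected, Wald p-values were recomputed with the deposited errors and adjusted by Benjamini-Hochberg over all genes. GC content and length came from GENCODE M21 (GRCm38) for 16795 of 17110 genes, and their joint trend was removed by loess (span 0.3, R 4.3.3). The longest transcript need not be the one expressed, which limits levels per kilobase and this correction. The planned form was ordinary loess on the longest transcript. Another 4 forms (ordinary or robust, longest or longest coding transcript, with or without the all-gene median kept) were added after its values had been seen, first to replace it, and all 5 are reported. Windows of 150 bases were matched exactly on both strands to all GENCODE M21 transcripts. The procedures were tested on simulated data.

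Named genes are every called member, the mitochondrial and core subunits, tissue-restricted isoforms with their general counterparts, the extremes of each complex, members nearest the threshold, up to 4 called genes with the smallest p-values from each other list, and genes a result turns on. Members, lists and tests were chosen with earlier results of these data known. The gene copies and shared windows were examined after the fold changes had been seen. A few genes that this rule would name are not reported here by name, though the counts and medians include them.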

Additional observations from a re-analysis of the deposited data

How the results depend on the processing

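Medians below are given as values, since no replicate values were at hand to set their spread. With 0 set at the ribosomal protein genes the medians of complexes I, II, III, IV and V were 0.013, -0.019, 0.20, 0.097 and 0.061, against 0.11, 0.073, 0.29, 0.19 and 0.15 as deposited. Calls of 25 positive and 0 negative became 14 and 2 with 0 set at the ribosomal protein genes, and 5 positive with the authors' limit of 0.5, which the stricter limit itself produces. The planned GC and length correction (ordinary loess, longest transcript) gave 8 negative calls and medians of -0.059 for complex I, 0.056 for III, 0.045 for IV and -0.20 for mitochondrial genes, with mt-Atp6 at -0.22 and mt-Nd1 at -0.11.

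That result prompted other forms of the loess, chosen after seeing the data, on the view that a shift of all genes had produced it. Ordinary loess on coding transcripts gave 16 positive and 8 negative calls, medians of -0.061, 0.035, 0.041 and 0.049 for complexes I, III, IV and V and -0.24 for mitochondrial genes, mt-Atp6 at -0.24 and mt-Nd1 at -0.14. Keeping the all-gene median in that fit did not undo the shift: 12 positive and 11 negative calls, medians of -0.11, -0.019, -0.013 and -0.0051, -0.0068 for nuclear and -0.29 for mitochondrial genes, mt-Atp6 at -0.29, mt-Nd1 at -0.19, mt-Cytb at -0.019 and Atp5pd at -0.0059. Robust loess gave 1 negative call on either transcript. The cause of these differences was not tested.

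No paired analysis was possible because columns of counts could not be tied to samples. Leaving out each replicate and the edgeR fits were not run for the same reason, so whether 1 library or collection date decides a value is not answered here. Shifts near 0.1, the members' median standard error, are at the limit of what single genes can show.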

Other observations

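The 5 pseudogene rows left out of the members were Cox5b-ps, Atp5l2-ps, Ndufs5-ps, Atp5pb-ps and Ndufa12-ps. Their log2 fold changes, from the authors' deposited table, were 0.19, 0.40, 0.068, 0.055 and -0.011. The authors' DESeq2 test called 0 of them, and 0 had an unadjusted p-value under 0.05. Ndufs5-ps had a mean normalized count of 436.4, against 214.1 for Ndufs5, the complex I subunit it resembles, and 12.2% of the 150-base windows of Ndufs5 occur in other genes. Gm10221, a processed pseudogene that shares windows with Atp5mg, was called at 0.46 (adjusted p-value 0.0499 in the authors' deposited table), while Atp5mg was at 0.18 and not called.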
